A study of Homo sapiens with 6 samples.

Results

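The genes described here encode the proteasome, its assembly chaperones, activators and inhibitor, and the transcription factor NFE2L1. They were chosen by name, as every gene of the count table whose symbol starts with PSMA, PSMB, PSMC, PSMD, PSME, PSMF or PSMG, together with POMP, ADRM1 and NFE2L1, leaving out 3 antisense names. This gave 50 of the 30051 genes in the table. PSMC3IP, a cofactor of meiotic recombination, and PSME3IP1, a protein that binds the activator PSME3, are among the 50 by their names only and are no subunits. PSMA8, PSMB8 and PSMB9 were not analysed here.

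RNA was sequenced from MDA-MB-231, an established human triple-negative breast cancer line, in 3 libraries of cells given the solvent DMSO and 3 of cells given 50 nM panobinostat, both for 24 h. Panobinostat inhibits most histone deacetylases, the enzymes that remove acetyl groups from histones and other proteins. The DMSO libraries are numbered 1, 2 and 3 and the panobinostat libraries 1, 2 and 4, and the design text calls the repeats independent. All 6 libraries come from this 1 line, so the values describe that line alone.

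The proteasome degrades ubiquitin-tagged proteins. Its core particle is a barrel of stacked alpha and beta rings with the peptidase sites inside, and its regulatory particle, a base with a ring of ATPases and a lid, binds, deubiquitinates, unfolds and feeds in the substrate. Dedicated chaperones assemble both particles, and NFE2L1, a transcription factor made in the endoplasmic reticulum membrane and released by proteolysis when degradation is impaired, is known to raise the transcription of most subunit genes together.

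Total counts ranged from 5389638 to 15106148 per library. Levels are given as CPM, that is, counts scaled to the same library total after correction by the trimmed mean of M-values (TMM), so a lower CPM is a smaller share of the counted RNA. In bulk RNA, fewer cells of a type and less RNA per cell cannot be told apart. Across genes, the log2 CPM of panobinostat replicate 4 correlated at 0.974 and 0.972 with panobinostat replicates 1 and 2, which correlated at 0.993 with each other, and at 0.962 to 0.964 with the DMSO libraries. This library therefore stood between the groups, and results are given with and without it. Of the markers listed for the line, VIM (2567 ± 9.13 CPM in DMSO), CD44 and ZEB1 were present and SPARC was low at 1.41 CPM. Of those listed as absent, ESR1, PGR and CDH1 were at 0.207 CPM or less in DMSO, and EPCAM was at 18.5 CPM. A leukocyte list summed to 0 to 0.368 CPM over the 6 libraries, with PTPRC and LYZ the 2 of its 4 genes that have a row. A list of 4 fibroblast genes summed to 17.1 to 19.1 CPM in DMSO and 55.5 to 90.5 in panobinostat, nearly all of it COL1A1, while DCN, COL3A1 and PDGFRA were at 0.765 CPM or less on average in either group.

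Most proteasome genes moved little under panobinostat, and more of them fell than rose. Of the 50 genes, 48 had enough counts for a test, and of these 19 fell, 2 rose and 27 were not called (edgeR quasi-likelihood test, Benjamini-Hochberg adjusted p under 0.05 over all 13341 tested genes). The 21 called genes are 43.8% of the 48, where 58.9% of all tested genes were called. The 19 falls are 39.6%, where 28.6% of all tested genes fell, and the 2 rises are 4.17%, where 30.2% of all tested genes rose. Among the 9509 tested genes at 10 CPM or more in DMSO, which is closer to the level of these genes, 35.7% fell and 27.2% rose. The rises were PSME4, a nuclear activator of the core particle, and PSMD3, a lid subunit. The largest falls were in PSMD7, a lid subunit, PSMB10, an inducible peptidase subunit, PSMC3IP, and NFE2L1.

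The changes lay in a narrow band. Log2 fold changes (panobinostat over DMSO, given as estimate ± SE where an error follows) ran from −0.75 to 0.29, with a median of −0.13 and an SD of 0.25 over the 48 genes. Over all tested genes the median was 0.00 and the SD 0.92, and over those at 10 CPM or more in DMSO −0.06 and 0.59. No estimate reached 2-fold, where 15.8% of all tested genes did and 9.21% of those at 10 CPM or more in DMSO. In 35 of the 48 genes the estimate was below 0 and in 13 above. The values of the groups did not overlap in 30 of 48 genes (62.5%), 25 of them lower and 5 higher in panobinostat. Among all tested genes 69.0% did not overlap, made up of 34.0% of all tested genes lower and 35.0% higher. Of those at 10 CPM or more in DMSO, 74.1% did not overlap. Of the 21 called genes, PSMB10 was the 1 whose groups overlapped.

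**Figure D1:**
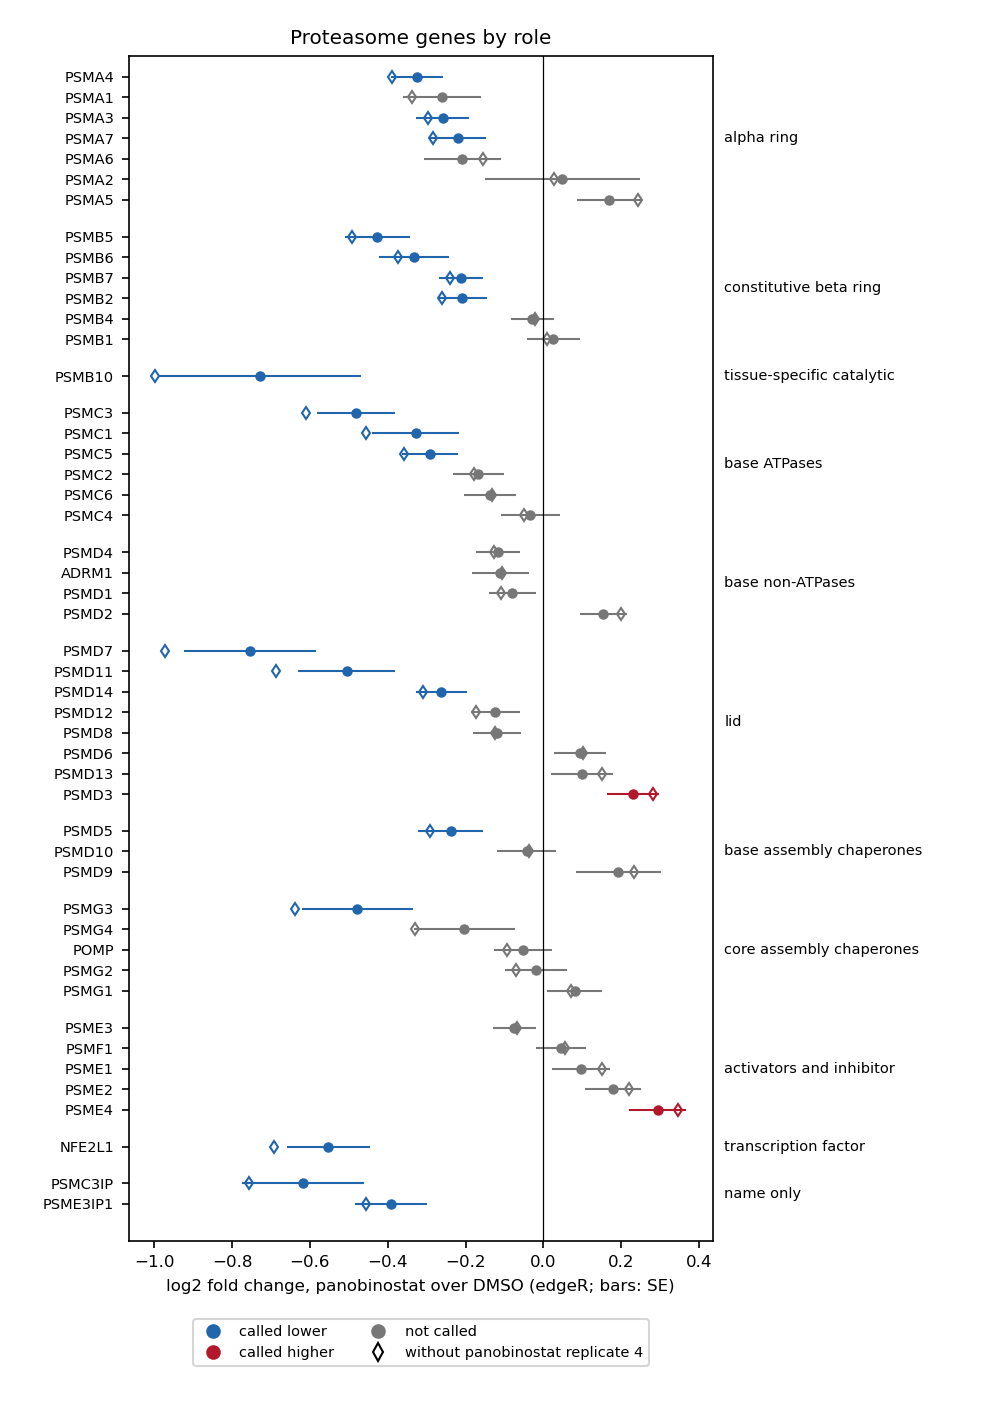
Log2 fold change of each of the 48 tested genes (horizontal axis, panobinostat over DMSO, bars are SE), grouped by role, in blue where called lower, red where called higher and grey where not called, with open diamonds for the fit without panobinostat replicate 4. All filled points lie between −0.75 and 0.29, and the 2 called rises are PSMD3 and PSME4.

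Panobinostat replicate 4 lay nearer to DMSO than the other 2 panobinostat libraries in most of these genes. Its log2 difference from the DMSO mean was smaller than the mean difference of replicates 1 and 2 in 40 of the 48 genes and had the other sign in 6, POMP, PSMA2, PSMD13, PSME1, PSMG2 and PSMG4. Over the 21 called genes, its log2 difference from the DMSO mean was 18.2% to 67.1% of the mean difference of replicates 1 and 2, with a median of 43.7%, and it was the smaller one in all 21. The median log2 difference of the 48 genes was −0.15 in panobinostat replicate 1, −0.18 in replicate 2 and −0.10 in replicate 4. For all tested genes it was 0.00, 0.01 and 0.00, and for those at 10 CPM or more in DMSO it was −0.08, −0.07 and −0.04. Without panobinostat replicate 4, 27 genes fell, 8 rose and 13 were not called, with all 21 calls kept in the same direction. In that fit 74.9% of all tested genes were called, 37.2% lower and 37.7% higher. Of the 9509 at 10 CPM or more in DMSO, 4274 fell and 3352 rose. The estimates of the 48 genes in that fit ran from −0.998 to 0.35. What set this library apart was not tested.

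**Figure D2:**
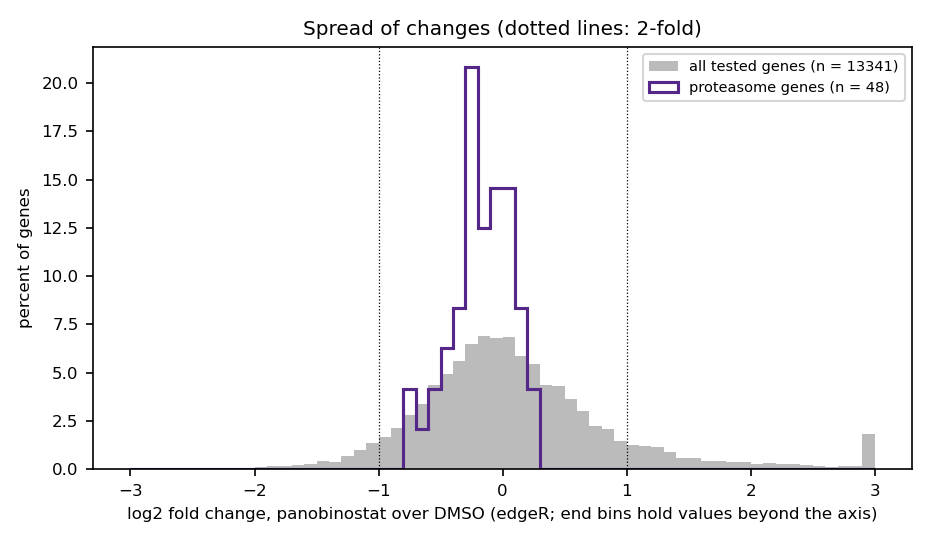
Distribution of log2 fold changes (horizontal axis) in the 48 tested proteasome genes against all 13341 tested genes (vertical axis, percent of genes, with the end bins holding all values beyond the axis and dotted lines at 2-fold). The proteasome genes stay between −0.75 and 0.29 around a median of −0.13, while all tested genes spread with an SD of 0.92 around 0.00.

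The windows around the transcription start of the largest called fall of a subunit, of NFE2L1 and of the called rises are shown because NFE2L1 is known to act on subunit genes through the antioxidant response element. They are RefSeq windows on GRCh38.p14, from 250 bases before to 50 bases after the start, 5′ to 3′ on the strand of the gene. They lie at chr16:74296564-74296863 (plus strand) for PSMD7, chr17:48048109-48048408 (plus strand) for NFE2L1, chr17:39980557-39980856 (plus strand) for PSMD3 and chr2:53970944-53971243 (minus strand) for PSME4. Capitals mark matches, on either strand, to TGACNNNGC, the antioxidant response element, and to CCAAT, the box bound by the factor NF-Y.
PSMD7: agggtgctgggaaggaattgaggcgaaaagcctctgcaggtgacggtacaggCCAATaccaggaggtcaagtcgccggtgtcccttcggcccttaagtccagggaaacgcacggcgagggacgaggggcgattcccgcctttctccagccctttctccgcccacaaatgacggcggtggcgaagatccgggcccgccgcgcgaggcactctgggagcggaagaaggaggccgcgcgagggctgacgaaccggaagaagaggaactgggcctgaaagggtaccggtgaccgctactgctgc
NFE2L1: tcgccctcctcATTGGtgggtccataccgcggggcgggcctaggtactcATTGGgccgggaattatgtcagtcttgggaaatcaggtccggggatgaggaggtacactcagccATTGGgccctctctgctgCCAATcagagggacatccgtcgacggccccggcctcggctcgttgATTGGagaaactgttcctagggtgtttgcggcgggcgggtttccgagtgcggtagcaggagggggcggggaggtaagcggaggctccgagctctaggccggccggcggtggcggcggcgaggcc
PSMD3: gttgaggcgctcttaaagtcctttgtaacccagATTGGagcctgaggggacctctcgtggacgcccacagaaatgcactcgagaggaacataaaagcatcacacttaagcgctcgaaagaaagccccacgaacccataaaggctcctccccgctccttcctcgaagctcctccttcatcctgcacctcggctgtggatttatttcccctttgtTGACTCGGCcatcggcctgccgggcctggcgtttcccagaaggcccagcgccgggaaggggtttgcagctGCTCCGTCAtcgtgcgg
PSME4: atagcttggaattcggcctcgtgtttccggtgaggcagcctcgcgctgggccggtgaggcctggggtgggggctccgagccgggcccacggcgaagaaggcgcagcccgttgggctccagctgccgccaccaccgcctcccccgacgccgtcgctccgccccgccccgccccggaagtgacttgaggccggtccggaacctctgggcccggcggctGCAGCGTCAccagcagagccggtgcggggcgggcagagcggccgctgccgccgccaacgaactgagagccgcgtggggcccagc
The PSMD3 window holds 2 matches to TGACNNNGC, at −37 to −29 and 34 to 42 from the start, and 1 to CCAAT. The PSME4 window holds 1 match to TGACNNNGC, at −34 to −26. The NFE2L1 window shown holds 5 matches to CCAAT and the PSMD7 window 1, at −198 to −194, and in both no match to TGACNNNGC was found. NFE2L1 has a further window at chr17:48048531-48048830, which holds no match to either motif.

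Windows were matched for 44 of the 50 genes, 56 windows in all, and PSMA7, PSMB1, PSMB6, PSMB7, PSMD4 and PSMG3 had none. TGACNNNGC was found in 16 of the 56 windows (28.6%), against 13.3% of all 35116 windows and 14.5% of the windows of tested genes. By gene it was found in 15 of 44, namely 3 of the 15 that fell, 2 of the 2 that rose and 9 of the 25 not called, and 1 untested, against 19.5% of all tested genes with a window. CCAAT was found in 26 of the 56 windows (46.4%), against 34.6% of all windows and 35.0% of those of tested genes. By gene it was found in 11 of the 15 that fell, 1 of the 2 that rose and 9 of the 25 not called, against 43.6% of all tested genes with a window. TGACGTCA, the cAMP response element, was found in 0 of the 56 windows, against 1.85% of all windows. The median GC content was 62.5% in these windows and 65.0% in those of tested genes. The 3 motifs were searched on both strands, a match says only that the letters are present, and the genes that fell or rose were counted as called above, with no test of the shares.

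NFE2L1 (ENSG00000082641, chr17:48048359-48061545) fell. It stood at 437, 447 and 447 CPM in DMSO and at 281, 266 and 360 CPM in panobinostat replicates 1, 2 and 4. All panobinostat values lay below all DMSO values, with replicate 4 between the others and the DMSO libraries. The log2 fold change was −0.55 ± 0.11 (adjusted p = 0.00419), from 444 ± 6.08 to 302 ± 50.2 CPM (mean ± SD, n = 3 per group here and throughout), and −0.69 without panobinostat replicate 4. It was called lower in every alternative fit run.

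The alpha ring forms the gate and outer wall of the core particle. Of its 7 tested genes 3 fell, PSMA3, PSMA4 and PSMA7, and 4 were not called. The median log2 fold change was −0.22. PSMA4 (ENSG00000041357, chr15:78540405-78552417) had the largest fall, from 284, 292 and 288 CPM in DMSO to 219, 222 and 249 CPM. Its groups did not overlap, and the log2 fold change was −0.32 ± 0.07 (adjusted p = 0.00508). PSMA5 had the highest estimate, 0.17 ± 0.08 (adjusted p = 0.110), with 198, 183 and 193 CPM in DMSO and 233, 219 and 192 CPM in panobinostat. Replicate 4 alone of the panobinostat libraries lay within the DMSO range of PSMA5. Without it PSMA5 rose (0.24) and PSMA1 fell (−0.34) in addition to the 3 named. PSMA3 (−0.26 ± 0.07, adjusted p = 0.0118) lost its call without DMSO replicate 1. PSMA7 (−0.22 ± 0.07, adjusted p = 0.0284) lost it when any 1 library other than panobinostat replicate 4 was left out, with adjusted p of up to 0.115.

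The beta ring holds the peptidase sites, in PSMB5 (chymotrypsin-like), PSMB6 (caspase-like) and PSMB7 (trypsin-like). All 3 fell. PSMB5 (ENSG00000100804, chr14:23025851-23035220) went from 161, 149 and 155 CPM in DMSO to 114, 105 and 127 CPM, a log2 fold change of −0.43 ± 0.08 (adjusted p = 0.00431) and −0.49 without panobinostat replicate 4. PSMB6 (chr17:4796164-4798495) went from 134, 119 and 115 CPM to 99.9, 88.8 and 104 CPM (−0.33 ± 0.09, adjusted p = 0.0137), and PSMB7 (chr9:124353465-124415442) from 236, 233 and 230 CPM to 200, 196 and 209 CPM (−0.21 ± 0.06, adjusted p = 0.0139). In all 3 the groups did not overlap.

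Of the other beta ring genes, which have no active site, PSMB2 fell (−0.21 ± 0.06, adjusted p = 0.0211), from 260 ± 4.23 to 226 ± 12.7 CPM. PSMB1 (0.03 ± 0.07) and PSMB4 (−0.03 ± 0.06) were not called in any alternative, with overlapping groups. PSMB3, also a ring subunit, had 1 count over the 6 libraries and was not tested, while the 6 tested genes of the ring stood at 123 to 260 CPM in DMSO. Whether the counting sets this value was not tested, and it is not read as a level of expression. PSMB6 lost its call without DMSO replicate 1 (adjusted p = 0.0652), PSMB7 when DMSO replicate 1 or 2 or panobinostat replicate 2 was left out (up to 0.0587), and PSMB2 without any 1 library except panobinostat replicate 4 (up to 0.0797).

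PSMB10 replaces PSMB7 in the immunoproteasome, the form that produces peptides for antigen presentation. PSMB10 (ENSG00000205220, chr16:67934506-67936850) was low in this line, at 8.98, 10.4 and 11.8 CPM in DMSO and 5.46, 4.23 and 9.03 CPM in panobinostat. The groups overlapped by replicate 4, which lay above DMSO replicate 1. The fall was −0.73 ± 0.26 (adjusted p = 0.0404), the second largest estimate here with the largest error, and it rested on 23 to 106 counts per library. It was −0.998 without panobinostat replicate 4, and the call was lost without any 1 of the other 5 libraries (adjusted p up to 0.142). PSMB10 shares 34.8% of its exon bases with another gene model on the same strand, AC040162.1, which was at 1.19 CPM in DMSO and 0.879 CPM in panobinostat, and its part in the PSMB10 values was not tested. Per kb of exon, PSMB10 made up 4.13% ± 0.585 of the summed PSMB10 and PSMB7 level in DMSO and 2.87% ± 1.02 in panobinostat, with overlapping values. PSMB11, the subunit of the thymus, had 2 counts in all and was not tested.

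Over the core particle, the 13 tested alpha and constitutive beta genes gave 7 falls and 0 rises. DESeq2 called 7 lower and 0 higher, and limma-voom with quality weights 8 lower and 1 higher. At an unadjusted p under 0.05 in edgeR there were 8 lower and 0 higher, with no share of all genes given here at that threshold. Of all 13341 tested genes, edgeR called 3821 lower (28.6%) and 4032 higher (30.2%) at the adjusted threshold. Among those at 10 CPM or more in DMSO, 35.7% were lower and 27.2% higher. Over all genes, DESeq2 called 3515 lower and 3695 higher, and limma-voom with quality weights 4928 and 5035. The summed CPM of the core genes was 2305, 2259 and 2246 in DMSO and 1998, 1968 and 2081 in panobinostat, a ratio of 0.888, and 0.874 without panobinostat replicate 4. Every panobinostat sum lay below every DMSO sum. Sums were given no test. Levels per kb of exon differed widely between core genes, although the subunits are equimolar in the barrel. In DMSO 10 of the 13 tested core genes lay between 33.4 (PSMA5) and 162 (PSMA7) CPM per kb, with PSMA2 at 1.11, PSMA6 at 4.12 and PSMA1 at 10.5. These 3 share 14.6%, 14.1% and 24.7% of their exon bases with another gene on the same strand in GENCODE release 29, and whether this bears on their level was not tested.

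**Figure D3:**
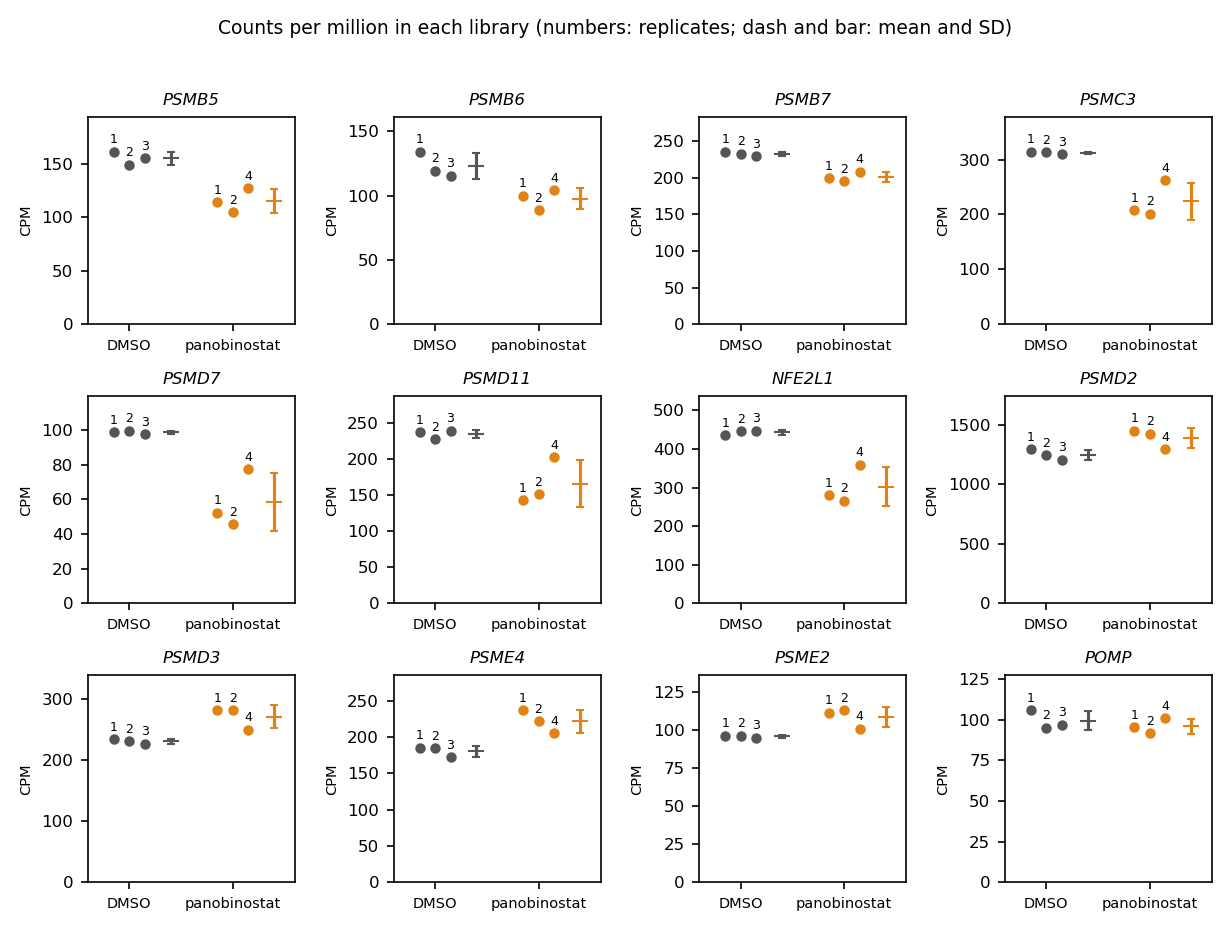
CPM of selected genes in each of the 6 libraries (vertical axis, 1 panel per gene with its own scale from 0, numbered points are replicates, and the dash and bar beside them are the group's mean and SD). NFE2L1, PSMB5 and PSMD7 lie lower in all 3 panobinostat libraries, with replicate 4 nearest to DMSO, and PSMD3 and PSME4 lie higher.

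The 6 ATPases of the base, PSMC1 to PSMC6, form the ring that unfolds the substrate. Of these PSMC1, PSMC3 and PSMC5 fell and 3 were not called, with a median of −0.23. PSMC3 (ENSG00000165916, chr11:47418775-47426439) went from 314, 313 and 310 CPM in DMSO to 208, 201 and 263 CPM. It did not overlap between the groups and fell by 0.48 ± 0.10 on the log2 scale (adjusted p = 0.00521), or by 0.61 without panobinostat replicate 4. PSMC5 fell by 0.29 ± 0.07 (adjusted p = 0.00975). PSMC1 (−0.33 ± 0.11, adjusted p = 0.0338) lost its call without any 1 library except panobinostat replicate 4 (up to 0.130).

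PSMC1 shares 75.8% of its exon bases with NRDE2 on the opposite strand, which fell from 42.6 ± 3.85 to 18.6 ± 8.11 CPM, and PSMC5 shares 19.5% with FTSJ3. No source used here states whether the counting used strand, so reads of PSMC1 and NRDE2 cannot be told apart and PSMC1 is uncertain. PSMC2 (−0.17 ± 0.07, adjusted p = 0.0558), PSMC6 (−0.14 ± 0.07) and PSMC4 (−0.03 ± 0.08) were not called. PSMC2 and PSMC6 were called lower by limma-voom with quality weights, PSMC2 with size factors of DESeq2, and all 3 with a replicate block. Without panobinostat replicate 4 PSMC2 and PSMC6 also fell, which makes 5 of the 6. In that fit 37.2% of all tested genes fell, and 4274 of the 9509 at 10 CPM or more in DMSO. The summed CPM of the 6 ATPases was 1135, 1132 and 1079 in DMSO and 890, 880 and 1000.2 in panobinostat, a ratio of 0.828.

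Of the base subunits that are no ATPases, PSMD1 and PSMD2 are scaffolds and PSMD4 and ADRM1 bind ubiquitin. None of these 4 was called by edgeR fitted on treatment alone with TMM scaling, or by DESeq2. Limma-voom with quality weights called 1 higher and 1 lower. At an unadjusted p under 0.05 in edgeR 1 was higher (PSMD2), with no share of all genes given here at that threshold. PSMD2 (ENSG00000175166, chr3:184299241-184309050) was by far the highest gene here, with 1294, 1247 and 1210 CPM in DMSO and 1451, 1428 and 1295 CPM in panobinostat. The groups did not overlap, but panobinostat replicate 4 lay next to DMSO replicate 1. The estimate was 0.15 ± 0.06 (adjusted p = 0.0553), and without panobinostat replicate 4 it was 0.20 and called higher. PSMD1 (−0.08 ± 0.06) and PSMD4 (−0.12 ± 0.06) were not called in that edgeR fit of all 6 libraries and fell without panobinostat replicate 4. With all 6 libraries, PSMD4 was called lower by limma-voom with quality weights, and both with a replicate block. ADRM1 (−0.11 ± 0.07) was not called in any alternative. PSMD2 weighs on the sums. The 18 genes of the regulatory particle summed to 0.956 of the DMSO level in panobinostat, and to 0.893 without PSMD2.

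The lid removes ubiquitin chains before a substrate enters. Of its 8 genes 3 fell, 1 rose and 4 were not called, with a median of −0.12. PSMD7 (ENSG00000103035, chr16:74296814-74306288), the inactive partner of the deubiquitinase PSMD14, had the lowest estimate of all 48 genes. Its level was 98.6, 99.5 and 97.6 CPM in DMSO and 52.3, 45.8 and 77.4 CPM in panobinostat. The groups were far apart and replicate 4 lay between. PSMD7 fell by 0.75 ± 0.17 on the log2 scale (adjusted p = 0.00687), and by 0.97 without panobinostat replicate 4. It shares 30.7% of its exon bases with an opposite-strand transcript that was at 3.44 CPM in DMSO and 4.38 in panobinostat.

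PSMD14 (chr2:161308425-161411717), the zinc-dependent deubiquitinase of the particle, went from 162, 159 and 165 CPM to 129, 135 and 143 CPM (−0.26 ± 0.06, adjusted p = 0.00967). The 2 proteins form a dimer. Per kb of exon, PSMD7 was 63.1%, 63.7% and 62.4% of the summed PSMD7 and PSMD14 level in DMSO and 53.2%, 48.9% and 60.4% in panobinostat. The shares did not overlap, and an exact two-sided permutation test of 3 against 3 cannot go below 0.1. PSMD11, a scaffold subunit of the lid (ENSG00000108671, chr17:32444510-32483319), went from 238, 228 and 239 CPM to 143, 151 and 203 CPM (−0.51 ± 0.13, adjusted p = 0.00975, and −0.69 without panobinostat replicate 4). PSMD7, PSMD11 and PSMD14 were called lower in every alternative.

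PSMD3 (ENSG00000108344, chr17:39980807-39997959) was the lid gene that rose. It stood at 234, 231 and 226 CPM in DMSO and 281, 282 and 250 CPM in panobinostat, without overlap. The log2 fold change was 0.23 ± 0.07 (adjusted p = 0.0178), 1.17-fold, and 0.28 without panobinostat replicate 4. The call was lost without any 1 of the other 5 libraries, with DESeq2 and with no filter on low counts (adjusted p up to 0.138). PSMD13 (0.10 ± 0.08) and PSMD6 (0.09 ± 0.07) also had estimates above 0, and PSMD8 and PSMD12 (both −0.12 ± 0.06) below 0, none of them called. Without panobinostat replicate 4 PSMD13 rose and PSMD8 and PSMD12 fell. SEM1, a small lid subunit outside the naming rule, was at −0.19 ± 0.09 (adjusted p = 0.112).

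**Figure D4:**
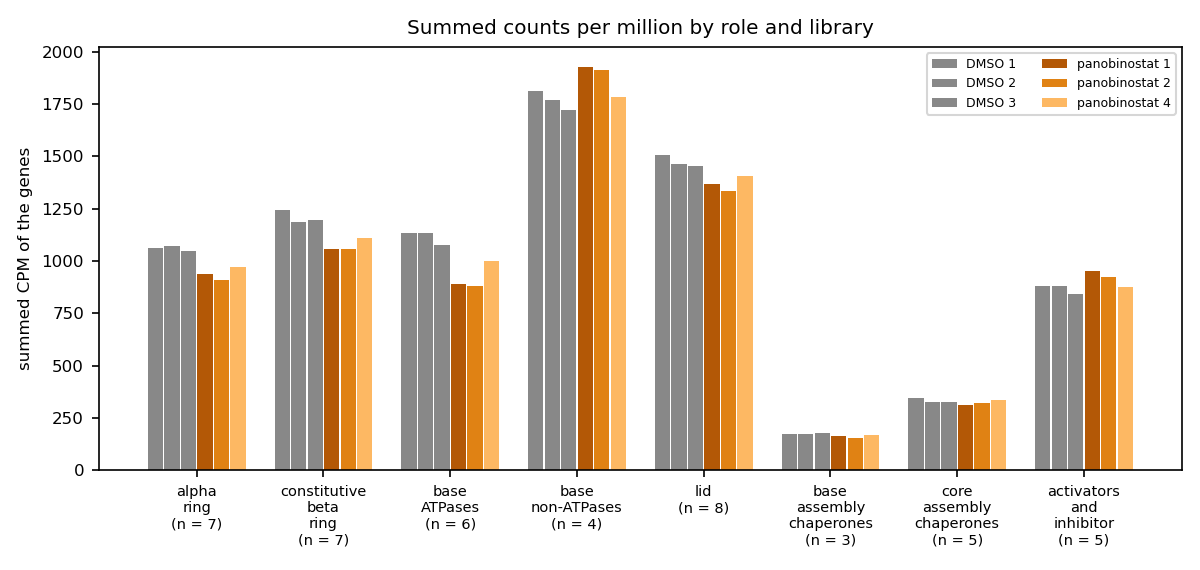
Summed CPM (vertical axis, from 0) of the genes of each role in each library, with grey bars for DMSO and orange bars for panobinostat replicates 1, 2 and 4. The alpha ring, beta ring, base ATPases and lid are lower in all 3 panobinostat libraries than in any DMSO library, while the base without the ATPases, which holds PSMD2, is not.

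Of the 8 assembly chaperones 2 fell and 6 were not called. Of the 3 that assemble the base, PSMD5 fell (−0.24 ± 0.08, adjusted p = 0.0366), from 98.0, 97.2 and 101 CPM to 83.0, 76.1 and 91.7 CPM, and PSMD9 (0.19 ± 0.11) and PSMD10 (−0.04 ± 0.08) were not called. The PSMD5 call was lost with library size only and without any 1 library except panobinostat replicate 4 (up to 0.120). PSMD9 had 18.0, 20.1 and 20.8 CPM in DMSO and 23.5, 21.1 and 22.0 CPM in panobinostat, and rose without panobinostat replicate 4.

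The core particle is assembled by PSMG1 with PSMG2, PSMG3 with PSMG4, and POMP, which guides the beta ring. PSMG3 (ENSG00000157778, chr7:1567332-1570032) was the called one of these 5. It went from 23.3, 24.5 and 23.3 CPM to 14.1, 17.8 and 19.9 CPM (−0.48 ± 0.14, adjusted p = 0.0208, and −0.64 without panobinostat replicate 4). All panobinostat values lay below the DMSO values, but the call was lost without DMSO replicate 1, 2 or 3 or panobinostat replicate 1 (up to 0.0730). Its partner PSMG4 was at −0.20 ± 0.13, with panobinostat replicate 4 (24.7 CPM) inside the DMSO range of 22.5 to 25, and fell without that library. PSMG1, with the highest estimate of the 5 (0.08 ± 0.07), stood at 108, 97.5 and 97.1 CPM in DMSO and 107, 108 and 106 CPM in panobinostat. PSMG2 was at −0.02 ± 0.08. POMP stood at 106, 95.1 and 97.0 CPM in DMSO and 95.2, 91.7 and 101 CPM in panobinostat (−0.05 ± 0.08, adjusted p = 0.574), with overlapping groups.

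The activators open the core gate without ATP. PSME1 and PSME2 form one activator, induced by interferon, PSME3 forms another in the nucleus, and PSME4 is a large nuclear activator linked to acetylated histones. Of these and the inhibitor PSMF1, 1 rose and 4 were not called, with a median of 0.10. PSME4 (ENSG00000068878, chr2:53864069-53970993) stood at 185, 185 and 172 CPM in DMSO and 237, 221 and 205 CPM in panobinostat. Every panobinostat value was above every DMSO value. The log2 fold change was 0.29 ± 0.07 (adjusted p = 0.00984), 1.23-fold, the largest rise of the 48 genes, and it was called in every alternative.

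PSME2 went from 96.2, 96.1 and 94.8 CPM to 111, 113 and 101 CPM (0.18 ± 0.07, adjusted p = 0.0588), without overlap but not called. Its neighbour PSME1, on chromosome 14 as well, went from 117, 124 and 118 CPM to 132, 134 and 117 CPM (0.10 ± 0.07, adjusted p = 0.291), with panobinostat replicate 4 at the bottom of the DMSO range. Both rose without panobinostat replicate 4, by 0.22 and 0.15. PSME3 stood at 331, 327 and 312 CPM in DMSO and 313, 305 and 302 CPM in panobinostat (−0.07 ± 0.05). PSMF1 stood at 154, 148 and 146 CPM and 160, 148 and 152 CPM (0.05 ± 0.06). Neither was called, and both had overlapping groups.

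The 2 genes chosen by name only both fell. PSMC3IP stood at 21.9, 20.8 and 25.1 CPM in DMSO and 13.7, 12.5 and 18.1 CPM in panobinostat (−0.62 ± 0.16, adjusted p = 0.0109). PSME3IP1 stood at 72.6, 83.0 and 77.3 CPM and 56.5, 55.7 and 65.3 CPM (−0.39 ± 0.09, adjusted p = 0.00824). Without these 2 and NFE2L1, 16 of the 45 tested proteasome genes fell and 2 rose. Beside this, 28.6% of all tested genes fell and 30.2% rose. Of those at 10 CPM or more in DMSO, 35.7% fell and 27.2% rose. The authors' deposited table called 18 of the 48 genes lower and 2 higher. Among the genes tested here it called 52.6%, with 26.5% lower and 26.1% higher, and 19 of the 21 calls here were called there in the same direction. Not called there were PSMB7 (log2 fold change −0.15) and PSMD5 (−0.20), both below 0.

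Genes that work with the proteasome were read from 3 further lists, beside which the shares of all tested genes, 30.2% higher and 28.6% lower, apply as above. Of 17 ubiquitin receptors and proteasome-bound factors 7 fell, 2 rose and 8 were not called, with a median of −0.10. ECPAS, an adaptor that binds the assembled proteasome, fell from 275 ± 10.1 to 126 ± 49.3 CPM (−1.13 ± 0.23, adjusted p = 0.00462), a larger fall than the estimate for any subunit here. The shuttle receptors UBQLN2 (−0.64 ± 0.11), RAD23B (−0.50 ± 0.09) and UBQLN1 (−0.19 ± 0.06) fell, and so did PAAF1 and FBXO7. ZFAND5, a proteasome-binding zinc finger protein, rose (0.38 ± 0.08), from 204 ± 7.87 to 265 ± 21.6 CPM, and DDI2 rose by 0.25 ± 0.09. The calls of UBQLN1, PAAF1 and DDI2 were lost without any 1 library except panobinostat replicate 4 (adjusted p up to 0.115, 0.117 and 0.166). That of PAAF1 was also lost with library size only and with the DESeq2 Wald test (up to 0.0724), and that of DDI2 with DESeq2 size factors, the DESeq2 Wald test and no filter on low counts (up to 0.258). That of FBXO7 was lost without DMSO replicate 1 or 3 or panobinostat replicate 1 or 2 (up to 0.123), and that of ECPAS was lost with no filter on low counts (0.0707).

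NFE2L1 itself is degraded or activated by a set of enzymes, of which 14 genes were listed with its partners. Of these 7 rose, 4 fell and 3 were not called, with a median of 0.18. SYVN1 (0.80 ± 0.13) and SEL1L (0.72 ± 0.10), the ubiquitin ligase of the endoplasmic reticulum and its adaptor, rose, and SEL1L went from 195 ± 7.82 to 321 ± 40.4 CPM. DDI2, the protease that cleaves NFE2L1, rose, as did MAFK (0.74 ± 0.11), a partner on DNA, UFD1, FBXW7 and BTRC. VCP, which extracts NFE2L1 from the membrane, fell (−0.22 ± 0.06), as did MAFG (−0.48 ± 0.09) and the related factor NFE2L2 (−0.43 ± 0.08). KEAP1, which holds NFE2L2 for degradation, fell from 200 ± 2.37 to 60.6 ± 43.1 CPM (−1.74 ± 0.40, adjusted p = 0.00720). Its panobinostat values were 36.7, 34.7 and 110 CPM, with replicate 4 the high one, and its call was lost with no filter on low counts (0.105). The calls of UFD1 and FBXW7 were lost without any 1 library except panobinostat replicate 4 (up to 0.125 and 0.158). Both were also lost with no filter and with the DESeq2 Wald test (up to 0.120 and 0.228), and that of FBXW7 with DESeq2 size factors. The call was lost for BTRC without DMSO replicate 2 or 3 or panobinostat replicate 1 or 2 (up to 0.0697).

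Of 9 genes of antigen processing 6 were tested, and 3 fell, 1 rose and 2 were not called. ERAP2 (−1.28 ± 0.21) and ERAP1 (−0.45 ± 0.09), which trim peptides after the proteasome, fell, as did the transcription factor IRF1 (−0.32 ± 0.09), whose call was lost without DMSO replicate 2 or 3 or panobinostat replicate 1 (adjusted p up to 0.0697). B2M and NLRC5 were not called. TAP2 and TAPBP had 1 count each over the 6 libraries and were not tested, which is not read as a level of expression, and TAP1 was not analysed here.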

How the data were processed

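Per the labels' protocols, RNA of 6 libraries (3 DMSO, 3 panobinostat) was made into libraries with a stranded mRNA kit. The authors deposited raw counts per gene, not normalised. The submitters' processing notes name GRCh38.p14 and FastQC. No source used here names the aligner or annotation, or says whether counting used strand. The deposited table also holds the authors' own log2 fold changes and their adjusted p-values, with neither the tool nor the libraries behind them stated in any source used here. Counts and that comparison carry separate identifier columns, which are the same on 61 of 30199 lines, so both were matched by identifier.

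In R 4.3.3, edgeR 4.0.16 fitted treatment alone with its robust quasi-likelihood model and TMM scaling. Its filterByExpr step left 13341 genes to test and removed 16710. Calls needed an adjusted p (Benjamini-Hochberg, over all tested genes) under 0.05. The biological coefficient of variation was 0.112. The SE is that implied by each estimate and F value. The same data were also run with size factors of DESeq2, with upper-quartile factors, by library size only, unfiltered, and with the DESeq2 1.42.0 Wald test, with voom of limma 3.58.1 and quality weights, with each library left out, and with a replicate block. Fits without a library kept the 13341 genes.

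Coordinates and promoter windows are RefSeq's on GRCh38.p14, and exon lengths and overlaps GENCODE release 29. Levels per kb divide CPM by the summed exon length. The members, role classes and related lists were chosen with earlier results of these data known. Every member is accounted for. The catalytic subunits, NFE2L1, POMP, the activators, PSMF1 and the largest rise and fall of each role have their value in each library, and of the related genes those called are named, except some that are not reported here and stay in the counts of their lists. PSMC3IP, PSME3IP1, PSMD14, PSMD11, PSMD5 and PSMD9 values in each library were added after their values were seen. p-values measure the spread between these libraries.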

Additional observations from a re-analysis of the deposited data

How the results depend on the processing

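No proteasome gene reversed its call in any alternative. Of the 21 calls, 11 were kept in all alternatives (NFE2L1, PSMA4, PSMB5, PSMC3, PSMC3IP, PSMC5, PSMD7, PSMD11, PSMD14, PSME3IP1 and PSME4) and 10 were lost in at least 1. Of the 27 genes not called, 10 were called in none. The others were called in at least 1 alternative, 14 of them without panobinostat replicate 4, 17 with the replicate block and 12 with limma-voom and quality weights. Of the 24 called genes of the related lists, 14 were called in all alternatives and 10 were not. The 2 rises became 4 with upper-quartile factors and 4 with library size only, 1 with no filter, 1 with the DESeq2 Wald test and 7 with limma-voom and quality weights. In the same order, the 4032 rises over all genes became 4121, 4273, 4186, 3695 and 5035. With 1 library left out there were 1 to 8 rises, 8 of them without panobinostat replicate 4. The 19 falls became 10 to 27 with 1 library left out, the lowest without DMSO replicate 1 and the highest without panobinostat replicate 4. Over all tested genes the 3821 falls became 2669 and 4969 in these fits, and the 4032 rises 3218 and 5024. The cause was not tested. The median log2 fold change of the 48 genes was −0.10 with library size only and −0.19 with no filter, the ends of its range, where that of all tested genes was 0.03 and −0.05. The PSMB10 share in DMSO was 3.47% by longest transcript.

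Replicate numbers 1 and 2 are shared by the groups. Deviations of same-numbered libraries from their group means correlated at 0.0514 and 0.00807, so the numbers are not shown to pair them. The panobinostat mean includes replicate 4, whose offset enters the deviations of replicates 1 and 2. This check could therefore miss a pairing, and whether one exists is not known. With the replicate block, which rests on these 2 numbers, 8 genes rose and 30 fell, and of all tested genes 5031 rose and 4950 fell.

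PSMB3 and PSMB11 had too few counts to test, and the estimates of PSMB10 and PSMA2, at about 10 CPM or less, have the largest errors.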

Other observations

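The 3 antisense genes left out by the naming rule gave the following values. PSMG3-AS1, named as antisense to PSMG3, had 8, 4 and 9 counts in DMSO and 40, 14 and 9 counts in panobinostat, or 0.881 ± 0.449 and 2.19 ± 0.720 CPM, and was below the filter on low counts. PSMA3-AS1 was at 52.5 ± 1.17 CPM in DMSO and 45.0 ± 5.38 CPM under panobinostat, a log2 fold change of −0.23 ± 0.10 (adjusted p = 0.0860 in edgeR, and −0.33 without panobinostat replicate 4). PSMD6-AS2 was at 0.943 ± 0.238 and 0.426 ± 0.0511 CPM. Without the strand setting of the counting, reads in exon bases shared with a gene on the opposite strand cannot be told apart. PSMG3 shares 3.06% of its exon bases with PSMG3-AS1. PSMD6 shares 7.83% with PSMD6-AS1 and PSMD6-AS2 together. PSMA3 shares 0 exon bases with a gene on the opposite strand, so this limit does not apply to PSMA3 and PSMA3-AS1.

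Of the 10 tested genes that share over 5% of a member's exon bases on the opposite strand, 5 were called and 5 were not, where 58.9% of all tested genes were called. NRDE2 is described with PSMC1. SIRT3, a mitochondrial deacetylase that shares 6.63% of the exon bases of PSMD13, rose from 22.1 ± 1.52 to 37.5 ± 7.10 CPM (edgeR adjusted p = 0.00432). CEP76, a centriole protein that shares 13.9% of those of PSMG2, rose from 21.9 ± 0.176 to 28.1 ± 2.08 CPM (adjusted p = 0.0149). LAMA5, a laminin chain that shares 11.4% of those of ADRM1, fell from 175 ± 12.8 to 134 ± 14.7 CPM (adjusted p = 0.00925). RNF31, a ubiquitin ligase that shares 6.03% of those of PSME2, rose from 24.0 ± 0.300 to 31.9 ± 5.44 CPM (adjusted p = 0.0288). Their part in the values of PSMD13, PSMG2, ADRM1 and PSME2 was not tested.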
